A study of Mus musculus with 31 samples.

Results

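Polysomal RNA was compared with total mRNA in WT cultures of Ba/F3 cells, to describe which mRNAs are enriched on polysomes or depleted from them at baseline. Members were the WT cultures for which both a polysomal and a total mRNA library were available, matched by clone and replicate number. There were 6 such cultures among 14 with both libraries, and 12 of the 31 libraries of the series. They were clone 29 with numbers 1, 2 and 3, clone 28 with numbers 2 and 3, and clone 36 with number 3. Ba/F3 is a mouse lymphoid line that depends on interleukin 3. In all of these clones endogenous Rpl10 was knocked down with an shRNA and human RPL10 of WT sequence was expressed from a retrovirus, and each clone was grown from a single cell. The study describes repeat libraries of a clone as technical replicates. The p-values here measure the spread between 6 paired cultures, taken as independent although they come from only 3 clones. They do not measure the spread between clones. The R98S clones of the series enter below only as further libraries of the same measure, and the genotypes are not compared.

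An mRNA that is being translated carries several ribosomes at a time and sediments as a polysome, whereas an mRNA with 1 ribosome or none stays in the lighter fractions. The share of an mRNA on polysomes depends on how often translation starts on it, on how long ribosomes take to cross its coding sequence and on how long that sequence is. Control elements near the 5′ end, such as the pyrimidine tract at the start of ribosomal protein mRNAs and the iron-responsive element of ferritin mRNAs, can shift an mRNA between the polysomal pool and the untranslated pool.

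The measure was log2(polysomal value + 1) minus log2(total mRNA value + 1) in each culture, called the difference below. The deposited tables were normalised separately, so the difference has no natural zero, and the median gene of each culture was set to 0. As deposited, the median gene lay 0.28 to 0.35 log2 units lower in the polysomal library. Only genes whose mean reached 10 in each fraction were kept, which left 10427 of the 41255 gene symbols. The 12 libraries held 9338671 to 20353757 reads. The cytokine receptor subunit Csf2rb, on which Ba/F3 cells depend, had total mRNA values of 28599 to 54062. The B-cell genes Pax5, Ebf1 and Rag1 were at 0 in the 12 libraries, while the B-cell receptor chain Cd79a was present, and the summed values of 16 B lineage markers ran from 4554 to 9720 in total mRNA, mostly from the leukocyte gene Ptprc at 3449 to 8607, with 11 of the 16 below 3 in the total mRNA libraries. The summed values of 13 myeloid and mast cell markers, mostly Gata2, ran from 18934 to 30415.

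Cultures with replicate number 3 stood apart from the others. The differences of the 3 cultures with number 3 correlated across genes with r from 0.89 to 0.95 with each other. The 3 cultures with number 1 or 2 correlated with r from 0.12 to 0.65 among themselves, and pairs across the divide with 0.31 to 0.60. These correlations are across genes, which are not independent replicates. The share of genes past 2-fold was 46.4% to 48.8% in the cultures with number 3, against 8.80% and 12.9% in clone 29 with numbers 2 and 1 and 27.7% in clone 28 with number 2. The divide lay mainly in the polysomal libraries, in which 33.3% of the genes differed by more than 2-fold between the mean of number 3 and the mean of numbers 1 and 2, against 3.11% in total mRNA. The labels give the number without saying what it stands for. The polysomal library of clone 29 with number 1 also deviated unlike its own total mRNA library (r = -0.23) and correlated best with the total mRNA library of clone 29 with number 3 (r = 0.35), whereas the other 5 cultures had r from 0.21 to 0.45 with their own. Whether the libraries of this culture are matched as labelled was not tested. Without it 6353 genes were called, against 5762 with it. Gene groups are therefore given with their medians in single cultures.

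By limma on the paired differences, 5762 genes were called at an adjusted p under 0.1, which is 55.3% of the genes tested. Of these, 2893 (27.7% of the genes tested) were higher on polysomes and 2869 (27.5%) were lower. With a further limit of 2-fold, 2645 genes (25.4%) remained, of which 1156 genes (11.1%) were higher and 1489 (14.3%) were lower. Without centring on the median gene the calls were 1537 higher and 4345 lower, so the even split follows from where the zero was placed. The number of calls rested on the cultures with number 3. Within those 3 cultures 8331 genes were called, and without them 451, of which 404 were lower. With the mean of each number as 1 sample, called number means below, 799 genes (7.66%) were called, 113 of them higher (1.08%) and 686 lower (6.58%). Number means are only 3 values. Number 1 is a single culture, that of clone 29 whose polysomal library deviated unlike its own total mRNA library. A call lost with number means thus does not show that there is no difference. Of the genes tested, 3428 (32.9%) had the same sign in 6 of 6 cultures, 1625 of them higher (15.6%) and 1803 lower (17.3%). Those that were also called numbered 3255 (31.2%), with 1515 higher (14.5%) and 1740 lower (16.7%).

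The 12 most depleted protein-coding genes among those called with the same sign in 6 of 6 cultures and a mean of at least 100 included Sptbn1, Muc6, Iqgap1, Sptan1, Slfn4, Ceacam16, Leng8, Gigyf1, Mylk, Flna and Pygm, with differences from -4.31 to -3.48. Sptbn1 and Sptan1 encode the beta and alpha chains of spectrin, the scaffold under the plasma membrane, Flna encodes filamin A, which crosslinks actin, Iqgap1 is a scaffold of the cell cortex and Mylk is myosin light chain kinase. The median coding length of the 12 was 5411 nt, with a range of 1278 to 8754 nt, against 1373 nt for all protein-coding genes tested. All 12 were also called when the mean of each number was 1 sample, and all 12 when differences were corrected for coding length.

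Sptbn1 (chromosome 11, 30099395 to 30268175, minus strand, mm10) had normalised read counts of 4993, 6461 and 9434 in total mRNA (lowest, median and highest of 6), and of 124, 283 and 580 in the polysomal libraries. The 2 sets of libraries did not overlap. After centring, the polysomal level was 19.8-fold lower, a difference of -4.31 ± 0.27 (SE, n = 6), with single cultures from -4.99 to -3.15 (limma adjusted p = 0.000114). Iqgap1 (chromosome 7, 80711583 to 80825974, minus strand) had 6415, 7741 and 10184 in total mRNA against 149, 441 and 902 on polysomes, and a difference of -4.05 ± 0.31. For Sptan1 the difference was -3.89 ± 0.31, and for Flna, on the X chromosome, it was -3.51 ± 0.38. In each of these 4 genes the polysomal values of all 6 cultures lay below every total mRNA value.

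Some of the 12 were low or uneven. Muc6, a secreted mucin gene, ran from 39.6 to 3595 in total mRNA and from 1.32 to 124 on polysomes, so that its fractions overlapped. Slfn4, a schlafen gene of myeloid cells, ran from 13.0 to 2422 and from 2.64 to 222, and its single differences spread from -7.63 to -1.27. Ceacam16, a gene of the carcinoembryonic antigen family, was even across cultures at 166 to 254 in total mRNA and 5.29 to 16.1 on polysomes, but 23.2% of its exonic bases overlap another annotated gene. Leng8 and Gigyf1, whose coding sequences of 2355 and 3132 nt are less extreme, had differences of -3.64 ± 0.34 and -3.59 ± 0.35. Corrected for coding length they kept -3.24 and -2.88.

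**Figure D1:**
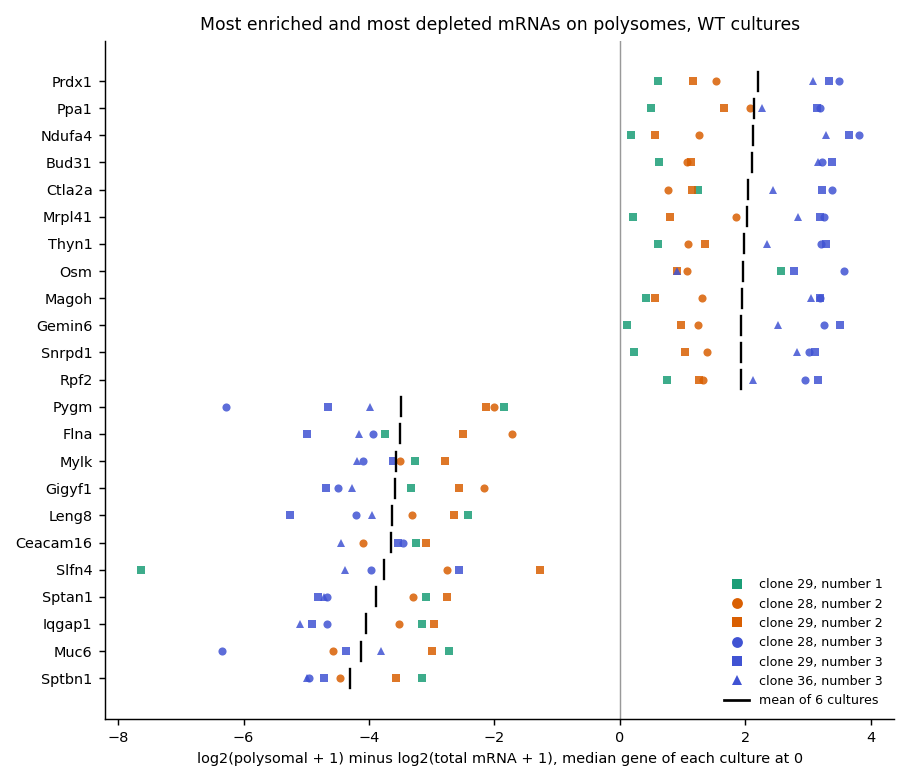
Log2 difference between polysomal and total mRNA for the 12 most enriched protein-coding genes and 11 of the most depleted, among genes called with the same sign in 6 of 6 cultures and a mean of at least 100, with the median gene of each culture at 0. Points are single cultures (shape for the clone, colour for the replicate number) and bars are means of 6 cultures. The depleted genes lie between -4.31 and -3.48 on average, the enriched ones between 1.93 and 2.21, and most points of number 3 lie farther from 0 than those of numbers 1 and 2.

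The mRNAs most enriched on polysomes encoded small proteins. The 12 highest genes by the same rule were Prdx1, Ppa1, Ndufa4, Bud31, Ctla2a, Mrpl41, Thyn1, Osm, Magoh, Gemin6, Snrpd1 and Rpf2, with differences from 1.93 to 2.21 and a median coding length of 468 nt. Prdx1 encodes a peroxiredoxin, an abundant enzyme that removes peroxides, Ppa1 a cytosolic pyrophosphatase, and Ndufa4 a small subunit of the respiratory chain. Bud31, Magoh, Gemin6 and Snrpd1 encode components of the splicing machinery, of the exon junction complex and of the assembly of spliceosomal particles. Osm encodes the cytokine oncostatin M, a target of interleukin 3 signalling. Bud31 and Ctla2a share 15.2% and 16.3% of their exonic bases with another annotated gene. Of the 12, 10 were also called with the mean of each number as 1 sample, and the calls of Ndufa4 and Gemin6 were lost.

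Prdx1 (chromosome 4, 116685544 to 116700822, plus strand) had 3186, 4093 and 5304 in total mRNA (lowest, median and highest) and 6504, 17418 and 33744 on polysomes. All polysomal values lay above all total mRNA values. Its difference of 2.21 ± 0.40 (limma adjusted p = 0.0040) was made up of 3.08, 3.34 and 3.50 in the cultures with number 3 and of 0.61, 1.17 and 1.53 in the others. Ppa1 (chromosome 10, 61648552 to 61674168, plus strand) had 600, 697 and 1829 in total mRNA and 1842, 3257 and 6648 on polysomes, and a difference of 2.14 ± 0.33. Osm had 313, 512 and 1841 in total mRNA and 572, 2814 and 2949 on polysomes, which overlap. Its differences of 0.91 to 3.58 did not divide by number, and Osm kept its call with the mean of each number as 1 sample. In 4 of the 12 enriched genes all polysomal values, as deposited, lay above all total mRNA values, and in 10 of the 12 depleted ones all lay below. Of all genes tested 1.29% lay wholly above and 17.5% wholly below.

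Long mRNAs were depleted in every culture, whereas the course over shorter mRNAs differed between cultures, as the plot by length shows. Over 10043 genes with an annotated coding sequence, Spearman's rho between difference and coding length was -0.60, -0.64 and -0.61 in the cultures with number 3, -0.44 in clone 28 with number 2, and -0.19 and -0.26 in clone 29 with numbers 1 and 2. These values describe genes of the same libraries and carry no test. Of the 438 mRNAs with more than 4800 nt of coding sequence, 409 (93.4%) were called lower and 2 higher, and their median difference was -1.62 over the 6 cultures and from -2.18 to -0.77 in single ones. Of these long mRNAs 80.6% were lower in 6 of 6 cultures. Of the 1615 mRNAs with over 2400 and up to 4800 nt, 65.1% were called lower and 2.60% higher.

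Short mRNAs did not give the same picture in all cultures. The 2925 mRNAs with over 600 and up to 1200 nt of coding sequence had a median above 0 in every culture, from 0.13 to 0.66, and 45.5% of them were called higher. The 200 mRNAs with up to 300 nt had medians of 1.43 to 1.62 in the cultures with number 3 and of 0.29 in clone 28 with number 2, but of -0.38 and -0.25 in clone 29 with numbers 1 and 2. Thus the depletion of long mRNAs was found in all 6 cultures, while the sign for the shortest ones depended on the culture. The relation to GC content changed sign, with rho from -0.41 in clone 29 with number 1, where it was stronger than that to coding length, to 0.31 in clone 28 with number 2. Whether the relation to length lies in ribosome association or in the preparation of the libraries was not tested.

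**Figure D2:**
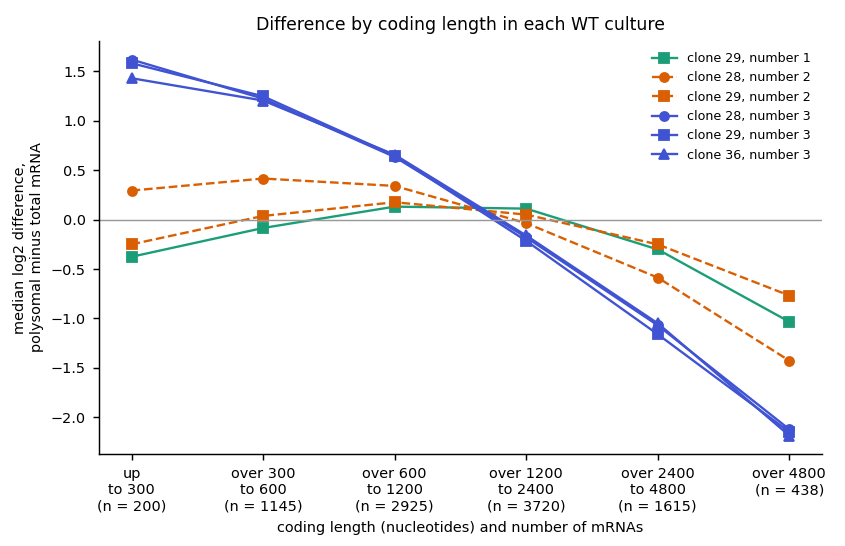
Median log2 difference between polysomal and total mRNA (vertical axis) for mRNAs in 6 ranges of coding length (horizontal axis, with the number of mRNAs), 1 line per WT culture. All lines fall from the middle ranges to the longest, where they lie between -2.18 and -0.77, and at up to 300 nt they spread from -0.38 to 1.62.

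Because length moved with the difference, several of the gene groups below are given with a second value. For it, a smooth trend on log2 coding length was removed in each culture. This correction was added after the relation to length had been seen. It left 4849 of 10043 genes called (48.3%), 2397 higher (23.9%) and 2452 lower (24.4%). The same correction on transcript length left 5098 of 10328 called (49.4%), 2544 higher (24.6%) and 2554 lower (24.7%). For all genes tested the median difference was 0.01, and -0.01 after the correction. Of all genes tested 27.7% were called higher and 27.5% lower, and with number means 1.08% were higher and 6.58% lower, and the counts of each group stand against these shares.

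Subunits of the proteasome, the complex that degrades tagged proteins, were among the groups with the highest differences. Of 38 subunits tested 36 were called higher, 26 of them by more than 2-fold, and none was lower. With number means 5 stayed higher. Their median difference was 1.24, with single cultures from 0.10 to 1.88, and 0.97 after the length correction. The highest were Psma3 (1.82 ± 0.44), Psma5 (1.78 ± 0.29) and Psmb3 (1.74 ± 0.34), and the lowest were Psmd2 (0.42), Psmb9 (0.15) and Psmd1 (-0.05). Psma and Psmb genes encode the catalytic core, and the inducible subunit Psmb9 was the one core subunit among the 3 lowest. Cytosolic chaperones and subunits of the chaperonin CCT, which fold newly made proteins, had 14 of 21 members higher and none lower, with a median of 0.87 and 0.86 after the correction, and 1 was still higher with number means. Their medians lay above 0 in every culture, from 0.41 to 1.12. Dnaja1, a co-chaperone of Hsp70, had 1.65 ± 0.23, Hspe1, the mitochondrial co-chaperonin kept on the same list, 1.51 ± 0.45, and Cct8 1.37 ± 0.22. At the other end Hsp90aa1, Bag1 and Hsph1 lay between -0.09 and -0.01 and were not called.

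mRNAs of mitochondrial proteins made in the cytosol were likewise high on polysomes. Of 76 mitochondrial ribosomal protein mRNAs 69 were called higher and none lower (median 1.22, and 0.73 after the length correction), and 2 stayed higher with number means. Of 78 nuclear-encoded subunits of the respiratory chain 63 were called higher and none lower (median 1.20, and 0.61 after the correction), and 5 stayed higher with number means. In both groups the median of clone 29 with number 1 lay below 0, at -0.19 and -0.33, while the cultures with number 3 gave 1.88 to 2.10 and 2.04 to 2.24. Cycs, which encodes cytochrome c, had the highest value among the respiratory genes (2.31 ± 0.53), followed by Ndufa4 (2.13) and Uqcrb (1.92). The lowest were Sdha (-0.06), Ndufs1 (-0.10) and Ndufa6 (-0.24), none of which was called. Of the 13 mRNAs encoded in the mitochondrial genome, which are translated by mitochondrial ribosomes, 8 were tested. Of these, 3 were called lower (37.5% against 27.5% of all genes) and none higher, and 1 was lower with number means. Their median was -0.33, with single cultures from -1.48 to 0.31. After the length correction it was -0.69, with 5 called lower (62.5% against 24.4% of all genes) and none higher. The small ATPase subunit mt-Atp8 had -1.59, of which clone 28 with number 2 gave -4.54. The complex I subunits differed less, as mt-Nd1 had -0.80 ± 0.26 and mt-Nd4 -0.56 ± 0.23, while mt-Cytb (-0.02) and mt-Co1 (0.04) were not called. Without clone 28 with number 2, in which the median was -1.48, the median of this group turned to the other side of 0.

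**Figure D3:**
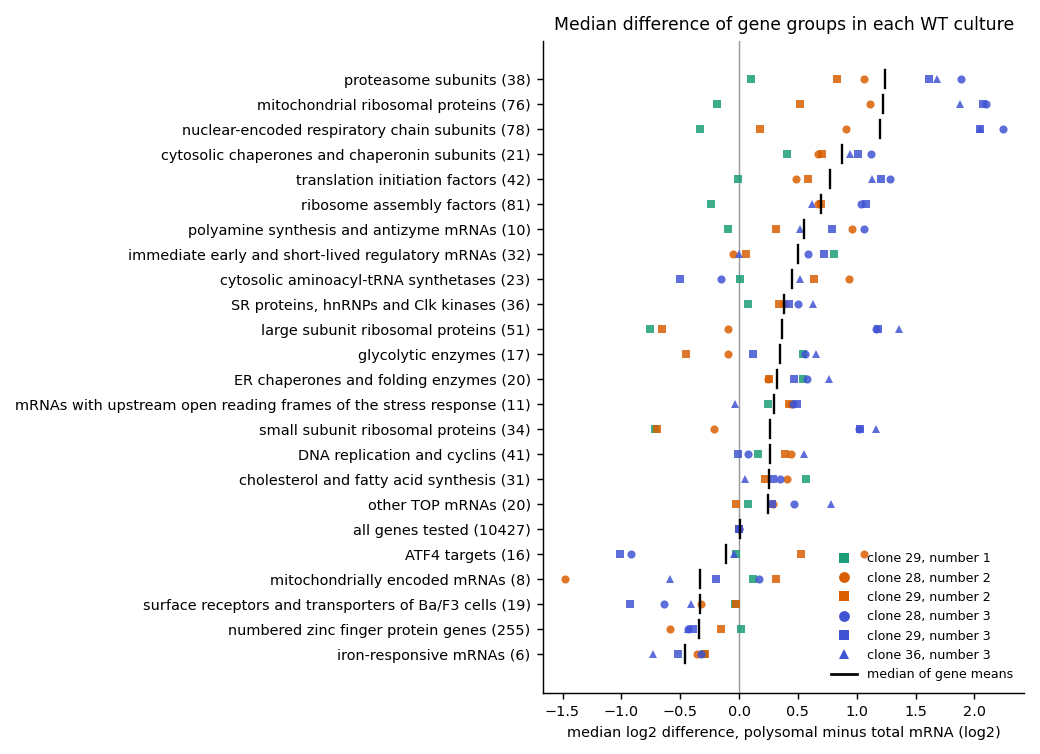
Median log2 difference between polysomal and total mRNA (horizontal axis) of each gene group (vertical axis, with the number of genes tested), for single WT cultures (points, shape for the clone and colour for the replicate number) and for the gene means over 6 cultures (bars). Proteasome, mitochondrial ribosomal protein and respiratory chain mRNAs have the highest bars, at 1.24, 1.22 and 1.20, and for ribosomal proteins the points of number 3 lie above 0 and the others below.

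Ribosomal protein mRNAs were short but were not enriched in all cultures. They are the best known TOP mRNAs, whose transcripts begin with a C followed by a run of pyrimidines that couples their translation to growth signals. Windows of 30 bases around annotated transcript starts, from 10 bases before the start to 20 bases from it, are shown for 4 of them, chosen because the tract begins at the annotated start. Capitals mark the tract, and the sequences are those of RefSeq on GRCm38.p6.
Rps6: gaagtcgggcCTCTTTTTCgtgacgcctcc
Rpl38: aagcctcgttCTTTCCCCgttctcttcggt
Rps15a: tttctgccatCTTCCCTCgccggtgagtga
Rps18: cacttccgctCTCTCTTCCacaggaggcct
A C followed by at least 4 pyrimidines, on the transcribed strand and within 5 bases of an annotated start, was found for 17 of 38 large subunit and 14 of 26 small subunit genes with a start in the table (44.7% and 53.8%). The same letters were found for 24.0% of 7822 genes tested and for 25.4% of 67 mitochondrial ribosomal protein genes. A match is a description of the annotated start only. The windows lie at 86857348-86857377 of chromosome 4 (minus strand) for Rps6, 114668570-114668599 of chromosome 11 (plus strand) for Rpl38, 118116128-118116157 of chromosome 7 (minus strand) for Rps15a and 33955646-33955675 of chromosome 17 (minus strand) for Rps18.

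Of 51 large subunit mRNAs 8 were called higher and none lower, and of 34 small subunit mRNAs none was higher and 1 was lower. The medians were 0.37 and 0.27. In the cultures with number 3 the large subunit medians were 1.17, 1.18 and 1.36, and with number 1 or 2 they were -0.76, -0.65 and -0.10. For the small subunit the respective medians were 1.02, 1.03 and 1.16, and -0.72, -0.69 and -0.22. Of the 85 ribosomal protein mRNAs 75 (88.2%) had a mean below 0 with numbers 1 and 2 and above 0 with number 3, a pattern shown by 12.1% of all genes tested. Their median coding length was 453 nt. Among other short mRNAs the pattern was shown by 28.2% of respiratory chain subunits (median 423 nt) and 13.2% of mitochondrial ribosomal proteins (median 582 nt). No share was taken over mRNAs matched by length. No ribosomal protein mRNA was higher in 6 of 6 cultures, whereas 15.6% of all genes tested were. With the length correction the median over both subunits was -0.31, with 32 members called lower and 2 higher. The sign of both medians thus depended on the cultures and on the correction, and it also turned under quantile normalisation and in clone 29 alone.

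Rps6, a regulatory phosphoprotein of the small subunit, had 17188, 21210 and 21567 in total mRNA (lowest, median and highest) and 11811, 21121 and 41806 on polysomes, with a difference of 0.33 ± 0.31 that was not called. Total mRNA was even, and the spread lay on polysomes. With number means Rps18 was the one ribosomal protein mRNA called. The highest members were Rpl36al (1.38 ± 0.43) and Rpl7l1 (1.17 ± 0.29), both paralogs of core subunit genes, and 24.5% of the exonic bases of Rpl36al overlap another annotated gene. Rpl10, the gene targeted by the shRNA in these clones, had 943, 1441 and 5715 in total mRNA and 1100, 2719 and 5567 on polysomes, and a difference of 0.93 ± 0.45 that was not called. The part of this signal that comes from the retroviral human cDNA was not separated here. Rps18 was the exception, with 163, 271 and 562 in total mRNA against 41.1, 52.9 and 61.2 on polysomes and a difference of -2.07 ± 0.26 (limma adjusted p = 0.0010). Its values were far below those of Rps6. Reads of low mapping quality were dropped, which can remove reads that align to several near-identical copies. Whether this affected Rps18 was not tested, so values of single ribosomal protein genes are uncertain.

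**Figure D4:**
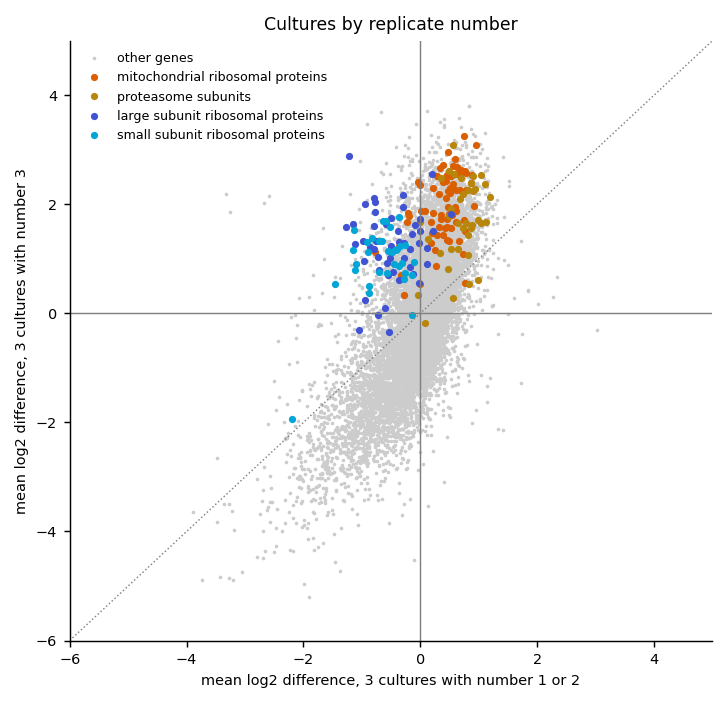
Mean log2 difference of the 3 cultures with replicate number 3 (vertical axis) against the mean of the 3 cultures with number 1 or 2 (horizontal axis), 1 point per gene, with 4 gene groups coloured. Of the 85 ribosomal protein mRNAs 75 lie at the upper left, while 66 of 76 mitochondrial ribosomal protein mRNAs and 35 of 38 proteasome mRNAs lie at the upper right. The dotted line marks equal values.

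Other TOP mRNAs, which encode translation factors and several proteins outside the translation machinery, did not move as a block. Of 20 tested, 6 were called higher (30%, near the 27.7% of all genes) and 3 lower, and with number means none was called. The median was 0.25, with single cultures from -0.02 to 0.78. After the length correction it was -0.07, with 5 members called higher and 4 lower. The median also lay below 0 without centring, with transcript length corrected (-0.22) and under quantile normalisation. Eef1d, a subunit of the exchange factor of elongation factor 1, had 1.57 ± 0.30, Btf3 and Naca, the subunits of the nascent chain complex, had 1.49 ± 0.34 and 1.03 ± 0.38, and the nucleolar chaperone Npm1 had 1.43 ± 0.34. Impdh2 (1.01 ± 0.19) and Nap1l1 (0.75 ± 0.17) were also higher, in 6 of 6 cultures. Eef2, which moves the ribosome along the mRNA, had -0.94 ± 0.33, and Pabpc1, the poly(A)-binding protein, and the initiation factor Eif4b had -0.63 each. Eef1a1, the most abundant of the list, had -0.28 ± 0.27 and was not called. The 3 that were lower have coding sequences of 1833 to 2574 nt, and those of the 6 that were higher span 612 to 1542 nt.

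Initiation factors were found at both ends. Of 42 tested, 27 were called higher (64.3% against 27.7% of all genes) and 7 lower (16.7% against 27.5%). With number means none was higher and 3 were lower (7.14%, near the 6.58% of all genes). The median was 0.78, with single cultures from -0.01 to 1.28, and 0.49 after the length correction. The eIF2 subunits Eif2s2 (1.57 ± 0.29) and Eif2s1 (1.49 ± 0.32), which bring the initiator tRNA, and the scanning factor Eif1ax (1.52 ± 0.32) were highest. The large scaffolds were lowest, with Eif3a at -2.08 ± 0.26, Eif4g1 at -1.43 ± 0.31 and Eif4g3 at -1.21 ± 0.22. With the length correction Eif4g1 and Eif4g3 had -0.24 and -0.03, and Eif3a kept -1.08. Size did not order all members, since Eif4ebp2, with a coding sequence of 360 nt, had -1.13 and Eif4g2, with 2718 nt, had 0.67, both named after their values were seen. Eif3a had 13652, 15024 and 20757 in total mRNA and 1756, 3008 and 5868 on polysomes, with no overlap.

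Ribosome assembly factors spread from -2.10 to 1.99. Of 81 tested, 50 were called higher (61.7%) and 12 lower (14.8%), and with number means 5 were higher and 5 lower. The median was 0.70, with single cultures from -0.24 to 1.07, and 0.79 after the length correction. Mrto4 (1.99 ± 0.38), Nop10 (1.99 ± 0.56) and Rpf2 (1.93 ± 0.32), which act on the large subunit precursor or in RNA modification, were highest. Polr1a, the largest subunit of RNA polymerase I (-2.10 ± 0.34), Utp20 (-2.10 ± 0.33) and Heatr1 (-1.82 ± 0.33), large scaffolds of early pre-rRNA processing, were lowest. After the correction Utp20 and Heatr1 had -0.29 and -0.30, and Polr1a kept -0.83. Among 23 cytosolic aminoacyl-tRNA synthetases and their partners 11 were higher (47.8%) and 5 lower (21.7%), and none and 2 with number means. After the length correction 12 were higher and 1 lower, with a median of 0.53. The small scaffold proteins Aimp2 (1.64), Eef1e1 (1.58) and Aimp1 (1.22) were highest, and Lars (-1.99), the bifunctional Eprs (-1.52) and Iars (-0.93), all with long coding sequences, were lowest. The median of this group was 0.45, but -0.01 over the means of the cultures with number 3, and it ran from -0.51 to 0.93 in single cultures.

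Of 20 folding enzymes of the endoplasmic reticulum 8 were higher (40% against 27.7% of all genes) and 1 was lower, and with number means none was called. The median was 0.33, and 0.41 after the length correction, and the median of every culture lay between 0.24 and 0.76. Pdia3, a disulphide isomerase, had 1.19 ± 0.22, Dnajb11, a co-chaperone of Hspa5, 1.17 ± 0.22, Creld2 1.01 ± 0.24, Pdia6 0.99 ± 0.19 and Manf 0.93 ± 0.29. Hspa5 itself (0.21 ± 0.20), Calr (0.26 ± 0.22) and Hsp90b1 (0.17 ± 0.22) were not called. Sel1l, an adaptor of degradation from this compartment, was lower (-0.77 ± 0.28).

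Ferritin mRNAs were depleted although they are short. Fth1 and Ftl1 encode the chains of the iron store, and when iron is scarce the iron regulatory proteins bind a stem-loop in the 5′ UTR and hold these mRNAs off ribosomes. Both mRNAs carry this element in the 5′ UTR of the annotated transcript. It is shown for them, since their depletion is described next, with the loop in capitals.
Fth1: tcctgcttcaaCAGTGCttgaacggaaccc
Ftl1: tcttgcttcaaCAGTGTttgaacggaacag
The windows are bases 88 to 117 and 79 to 108 of the GENCODE transcripts, on chromosomes 19 and 7. The element was searched on the sense strand as a C, 5 bases, the loop CAGTGN with any last base but G, and 5 bases that pair with the first 5. CAGTG alone occurs in 21.9% of the 9896 5′ UTRs searched, and the whole pattern in 10 of them (0.101%). Of those 10, 3 were called lower, Fth1 and Ftl1 among them, and 5 were called higher, so the letters alone did not go with a direction.

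Fth1 (chromosome 19, 9980598 to 9985098, plus strand) had 16954, 18967 and 24537 in total mRNA (lowest, median and highest) and 6686, 9323 and 9567 on polysomes. Ftl1 (chromosome 7, 45457944 to 45459884, minus strand) had 9734, 14626 and 17589 against 4521, 5735 and 6992. Neither gene had overlapping fractions. The differences were -0.84 ± 0.18 for Fth1 (limma adjusted p = 0.0071) and -0.96 ± 0.22 for Ftl1 (adjusted p = 0.0085), and both genes were lower in 6 of 6 WT cultures. Unlike in ribosomal protein mRNAs, the sign did not depend on the number, with -1.07 to -0.60 for Fth1 and -1.63 to -0.20 for Ftl1 in single cultures. Relative to mRNAs of the same coding length the differences were -1.46 and -1.57. Of the exonic bases of Ftl1 34.6% overlap another annotated gene. Tfrc, the transferrin receptor, which carries such elements in its 3′ UTR, had -0.33 ± 0.17, Slc11a2 0.14 ± 0.17 and Cdc14a -0.13 ± 0.18, and none of them was called. With the mean of each number as 1 sample the calls of Fth1 and Ftl1 were lost.

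**Figure D5:**
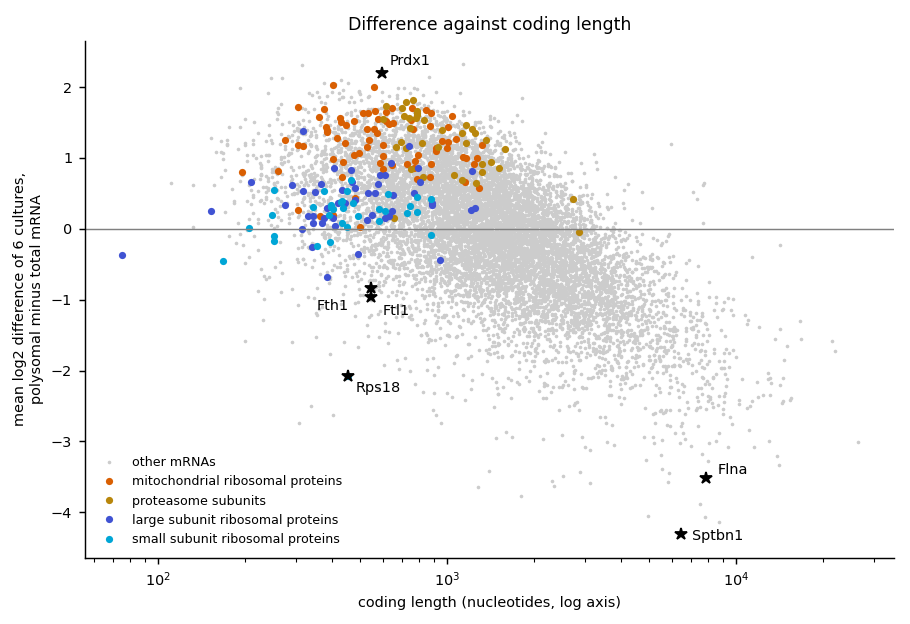
Mean log2 difference between polysomal and total mRNA over 6 WT cultures (vertical axis) against coding length (horizontal axis, log scale), 1 point per gene, with 4 gene groups coloured and 6 genes marked by stars. Fth1 and Ftl1 lie near -0.84 and -0.96 at about the coding length at which most mitochondrial ribosomal protein mRNAs lie above 0, and Sptbn1 is the lowest gene.

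Splicing regulators went in both directions. Of 36 SR proteins, hnRNPs and Clk kinases 18 were called higher (50% against 27.7% of all genes) and 6 lower (16.7% against 27.5%). The median was 0.38, with single cultures from 0.07 to 0.63, and 0.03 after the length correction. Hnrnpab (1.38 ± 0.23), the SR protein Srsf3 (1.32 ± 0.27) and Hnrnpc (1.26 ± 0.21) were highest. The lowest were Clk1 (-1.59 ± 0.18), Clk2 (-0.94 ± 0.16) and Clk4 (-0.70 ± 0.19), kinases that phosphorylate SR proteins, each lower in 6 of 6 cultures. Their relative Clk3 had 0.19, and members of the other families were low too, such as Srsf11 (-0.60) and Hnrnpul2 (-0.61). These were named after their values were seen. With number means Clk1 was the one member still called. Clk1 (chromosome 1) had 1193, 1579 and 2109 in total mRNA and 382, 404 and 476 on polysomes, with no overlap, and its single differences ran only from -1.91 to -1.01. Its coding sequence of 1449 nt is close to the median, and the length-corrected difference was -1.66.

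Of 41 DNA replication genes and cyclins 19 were called higher (46.3% against 27.7% of all genes) and 7 lower (17.1% against 27.5%). With number means 3 were higher and 3 lower, and the 7.32% that were lower lay near the 6.58% of all genes. The median was 0.26, with single cultures from -0.01 to 0.55. The replication clamp Pcna had 1.31 ± 0.19, with 3315, 3880 and 4648 in total mRNA and 5691, 7670 and 10486 on polysomes, and Rfc3 and Gins1 had 1.45 and 1.40. The polymerase Pole had -2.53 ± 0.23, with 1678, 2392 and 2591 in total mRNA against 175, 309 and 506 on polysomes, and the ligase Lig1 and the kinase Cdk6 had -1.30 and -1.25. The fractions of Pcna and of Pole did not overlap. Of 17 glycolytic genes 6 were higher (35.3%) and 5 lower (29.4%), near the shares of all genes, and with number means Hk2 alone was called. The median was 0.35, with single cultures from -0.45 to 0.65. It was 0.14 with coding length corrected and -0.07 with transcript length corrected. Pgam1 (1.17 ± 0.36), Tpi1 (1.11 ± 0.32), Ldha (0.91 ± 0.26), Pgk1 (0.73 ± 0.31), Gapdh (0.62 ± 0.26) and Pfkl (0.56 ± 0.26) were higher. Hexokinase 2, the gene Hk2, which commits glucose to the pathway, had -2.48 ± 0.28 and was lower in 6 of 6 cultures, with -1.92 after the length correction, and Pfkp (-1.11) and the glucose transporter Slc2a3 (-1.01) were also lower.

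Of 31 genes of cholesterol and fatty acid synthesis 14 were higher (45.2% against 27.7% of all genes) and 7 lower (22.6%, near the 27.5% of all genes), and 4 were higher and 3 lower with number means. The median was 0.25, with single cultures from 0.05 to 0.57. Ebp (1.73 ± 0.25), Fdps (1.35 ± 0.21) and Pmvk (1.23 ± 0.27), enzymes of the sterol pathway, were highest. Fatty acid synthase, Fasn (-2.52 ± 0.38), and acetyl-CoA carboxylase, Acaca (-1.64 ± 0.30), were lowest. After the length correction Acaca had -0.03. Of 10 polyamine genes 6 were higher (60% against 27.7% of all genes) and none lower, and with number means none was called. Their median was 0.55, with single cultures from -0.09 to 1.06, and 0.26 after the length correction, where 4 were higher and 1 lower. They were led by spermidine synthase, Srm (1.57 ± 0.39), and followed by Sms (0.93 ± 0.23) and ornithine decarboxylase, Odc1 (0.74 ± 0.28). The antizyme Oaz1 (0.53 ± 0.24), whose translation needs a frameshift, was higher, but lay at -0.0227 with coding length and at -0.17 with transcript length corrected, and Oaz2 (0.38 ± 0.18) was not called.

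Of 32 immediate early and other short-lived regulatory mRNAs 13 were higher (40.6%) and 2 lower, with a median of 0.50 and single cultures from -0.05 to 0.81. After the length correction 6 were higher (18.8%, against 23.9% of all genes) and 3 lower, with a median of 0.13, and with number means 5 were higher. Pim2, a survival kinase downstream of interleukin 3, had 135, 222 and 411 in total mRNA and 192, 723 and 2091 on polysomes, and a difference of 1.91 ± 0.53. Its fractions overlapped, and its single differences ran from 0.12 in clone 28 with number 2 to 4.09 in the same clone with number 3. Fos (1.60 ± 0.39) and Egr2 (1.45 ± 0.62), transcription factors of the early response, were also higher. Their differences did not divide by number, since clone 29 with number 1 gave 2.65 and 3.26 and clone 36 with number 3 gave -0.01 and -0.28. The pro-apoptotic Bcl2l11 (-1.16 ± 0.22) and the repressor Klf10 (-1.29 ± 0.30) were lower, Bcl2l11 in 6 of 6 cultures.

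mRNAs with upstream open reading frames, which lower the chance that a ribosome reaches the main start codon, had 5 of 11 members higher (45.5%) and 1 lower, and none was called with number means. The median was 0.29, with single cultures from -0.03 to 0.49. Atf4, the transcription factor of the amino acid response, had 0.92 ± 0.25, Eif5 0.92 ± 0.24, Slc35a4 0.59 ± 0.20 and Ibtk 0.36 ± 0.16. Ppp1r15b (-0.54 ± 0.20) was lower, and Ddit3 (-0.62 ± 0.34) and Cebpg (-0.57 ± 0.31) were not called. Psph, which encodes phosphoserine phosphatase of serine synthesis and is the gene the study follows, had 53.8, 63.97 and 75.7 in total mRNA and 68.1, 115 and 128 on polysomes. Its difference was 0.98 ± 0.23 (limma adjusted p = 0.0099), it was higher in 6 of 6 cultures, and it was 0.42 after the length correction, where it was not called. Psph shares 10.4% of its exonic bases with another annotated gene. With number means its call was lost as well (limma adjusted p = 0.266). Over all mRNAs the number of ATG triplets in the annotated 5′ UTR did not order the length-corrected difference. The median was -0.01 for 4899 mRNAs with none and -0.01 for 1710 with 3 or more. Without the correction the medians were 0.10 with none, -0.01 with 1, -0.10 with 2 and -0.09 with 3 or more. In that measure 32.1% of the mRNAs with none were called higher and 25.8% lower, against 21.3% and 31.1% with 3 or more.

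The targets of Atf4 differed among cultures. Of 16 tested, 5 were higher (31.2%) and 3 lower (18.8%), against 27.7% and 27.5% of all genes, and none was called with number means. Their medians ran from -1.02 in clone 29 with number 3 to 1.06 in clone 28 with number 2. The serine synthesis genes Phgdh (0.95 ± 0.34) and Psat1 (0.91 ± 0.24), the folate enzyme Mthfd2 (1.18 ± 0.29), the proline enzyme Pycr1 (0.76 ± 0.23) and asparagine synthetase, Asns (0.69 ± 0.26), were higher. Phgdh ranged from 0.10 to 2.89 in single cultures, with the highest value in clone 28 with number 2. The amino acid transporters Slc7a1 (-1.31 ± 0.41) and Slc7a11 (-0.87 ± 0.33) and the stress sensor Sesn2 (-0.88 ± 0.28) were lower.

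Of 19 surface receptors and transporters of Ba/F3 cells 6 were lower (31.6%, near the 27.5% of all genes) and 1 was higher, and 2 were lower with number means, with a median of -0.33 and medians below 0 in all 6 cultures, from -0.93 to -0.03. The leukocyte phosphatase Ptprc (-1.70 ± 0.27), the integrin Itga4 (-1.64 ± 0.29) and the sialoprotein Spn (-1.04 ± 0.29) were lowest, and the histocompatibility gene H2-D1 (0.48 ± 0.21) was highest. Of the 3 B lineage markers tested, Cd79a (0.86 ± 0.26) and Cd79b (0.54 ± 0.22), which encode the signalling chains of the B-cell receptor, were higher and Ptprc was lower. After the length correction Ptprc alone was called. Of 2 T lineage markers tested Cd3g was lower (-1.22), of 8 myeloid and mast cell markers Mcpt8 was higher (1.00) and Ctsg lower (-1.12), and none of 4 erythroid markers was called. With number means Ptprc was the one B lineage marker still called, and no T lineage or myeloid and mast cell marker was. Of 255 numbered zinc finger genes, most of them transcriptional repressors of the KRAB family, 93 were called lower (36.5%) and 19 higher (7.45%), against 27.5% and 27.7% of all genes tested. The larger share of lower calls was lost with number means, where 3.92% were lower against 6.58% of all genes. After the length correction it was less marked, with 28.7% lower against 24.4% and 6.69% higher against 23.9%. The median was -0.34, with single cultures from -0.58 to 0.02, and -0.19 after the length correction, and Zfp445 (-2.25 ± 0.39), Zfp948 (-1.87 ± 0.39) and Zfp626 (-1.80 ± 0.40) were lowest.

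Few noncoding RNAs could be measured. Among genes annotated as noncoding only 1810032O08Rik met the rule for named genes, with 149, 223 and 425 in total mRNA against 52.9, 63.2 and 86.5 on polysomes and a difference of -1.55 ± 0.23. Of its exonic bases 26.0% overlap another annotated gene. Of 20 host genes of small nucleolar RNAs 2 were tested, and Snhg7 was lower (-0.84 ± 0.18) while Snhg1 was not called (-0.25 ± 0.35). Malat1, Neat1 and Gas5 had values under 2 in the 12 libraries and were not tested. Of 25 symbols on the long noncoding list only A830080D01Rik was tested (-1.16 ± 0.22), and the annotation lists it as protein-coding. Of 70 clustered histone genes, whose mRNAs mostly lack a poly(A) tail, 5 were tested, and Hist1h4i was higher (1.38 ± 0.49). With number means Snhg7, A830080D01Rik and Hist1h4i were not called.

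The same measure was taken in the 8 R98S cultures with both libraries, which the choice of cultures left out. They share replicate numbers with the WT cultures. Of the 1740 genes called lower with the same sign in 6 of 6 WT cultures, 76.8% were lower in all 8 R98S cultures and none was higher in all 8, whereas 20.3% of all genes tested were lower in all 8. Of the 1515 genes called higher in the same way, 67.5% were higher in all 8 and 0.0660% were lower in all 8, against 18.5% of all genes tested that were higher in all 8. All 12 of the most depleted genes were lower in 8 of 8 R98S cultures, and so were Fth1, Ftl1 and Clk1. Of the 12 most enriched genes 10 were higher in 8 of 8, and Ndufa4 and Magoh were higher in 7.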

How the data were processed

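Polysomal RNA and total mRNA of Ba/F3 clones had been sequenced by the authors. According to the study's methods, polysomal fractions were pooled from a sucrose gradient, libraries were made with a stranded poly(A) kit, the first base was trimmed with seqtk, and rRNA and tRNA reads were removed with Bowtie2. Reads were aligned to mm10 with TopHat2 2.0.11, primary alignments with a mapping quality of at least 10 were kept, and exonic reads were counted per gene. HTSeq and DESeq2 are named in the submitters' processing notes. The use of strand was not given in the sources used here, so genes that overlap on opposite strands are uncertain. Each deposited value is a normalised signal that the authors obtained by dividing the read count of a gene by the DESeq2 size factor of its library, separately in each table. Values of the 12 libraries were whole multiples of a single step (within 0.001 of a read for 100% of the values), which gave back whole reads.

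Polysomal and total mRNA libraries were paired by the clone and number in their labels. As a check, deviations from the fraction means were correlated over genes, and 5 of 6 polysomal libraries correlated best with the total mRNA library of their own culture, 1 of them (clone 29 with number 3) narrowly (r = 0.2099 against 0.2093 for clone 36 with number 3). The sixth, of clone 29 with number 1, had r = -0.23 with its own and 0.35 with that of clone 29 with number 3. No 2 libraries of a fraction agreed within sampling noise (lowest chi-square per gene 22.8, where noise gives about 1).

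Centred differences of log2(value + 1) were fitted with an intercept in limma 3.58.1 (R 4.3.3, lmFit, eBayes with a trend on mean log2 level) over 10427 genes. Two-sided p-values were adjusted after Benjamini and Hochberg over all genes tested, with 0.1 as the limit for a call. Fold changes on the log2(value + 1) scale understate the change of low genes. Given errors are moderated standard errors. On simulated reads for this comparison, with 200 of 10427 genes changed, the fit recovered 100% of the 2-fold and 100% of the 4-fold changes. The simulated libraries were independent and had no effect of the replicate number. In the data the correlation estimated within numbers was 0.70 and far more genes were called. The simulation therefore checks that the fit runs properly and gives no rate of recovery or error for these data.

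Coding lengths, 5′ UTRs and positions came from GENCODE M21 on the same build. Of the genes tested, 9933 matched by symbol and 395 by a RefSeq synonym, 99.1% in all. A loess fit (span 0.5) removed trends on coding length, transcript length or GC content. Named genes were the 12 highest and 12 lowest protein-coding genes, up to 6 noncoding genes per direction, all members of lists of up to 20 genes, the 3 highest and 3 lowest of longer lists, Rpl10 and Psph. A few genes that meet this rule are not reported here. The members, the 30 gene lists and these rules were chosen with earlier results of these data known. edgeR 4.0.16 and DESeq2 1.42.0 on the recovered reads, other scalings, filters, blocks and left-out cultures were tried as alternatives.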

Additional observations from a re-analysis of the deposited data

Results flagged for a closer look

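Ribosomal protein mRNAs went in opposite directions by replicate number. The median of the large subunit list was 1.28 over the means of the cultures with number 3 and -0.50 over those with numbers 1 and 2, that of the small subunit list was 1.13 and -0.57, and that of both together was 1.17 and -0.52. The difference between the numbers was not tested, and clones are spread unevenly over the numbers.

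Single cultures stood far from the other 5 in 5 named genes and 1 gene group. In clone 28 with number 2, mt-Atp8 had a difference of -4.54 and Cdk6 one of -3.33. In clone 29 with number 1, Atf4 had -0.31 and Slc2a3 0.59, each on the other side of 0 from the mean, and the median of the ribosome assembly factors was -0.24 there. In clone 36 with number 3, Ibtk had -0.0314, near 0 where the other 5 cultures were positive. The rule was applied to 154 genes and 28 gene groups, and chance alone marks about 1 in 20. The total mRNA library of clone 28 with number 2 had the fewest reads, 9338671, apart from the other 5 total mRNA libraries.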

How the results depend on the processing

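Counts are given as pairs, of genes called and of those also past 2-fold, and were 5762 and 2645 in the report. The counts stayed within 1.5 times these values with edgeR (5642 and 2634), DESeq2 (6044 and 2666), quantile normalisation, pseudocounts of 0.5 and 5, the filters tried and GC correction, and without centring (5882, of which 26.1% were higher against 50.2%). Without a filter on low values 6677 were called among 19124, of which 28.3% were higher, with 708 higher and 3177 lower past 2-fold. Leaving out 1 culture at a time gave 3889 to 6353 called and 2055 to 3336 past 2-fold. With the mean of each clone as 1 sample 6181 and 3238 were found, and with a correlation estimated within clones 6267 and 2457. The libraries are paired by culture, and without that block (libraries unpaired) 5459 and 2591 were found. With the replicate number as a further replicate block 6402 genes were called, and 1650 were past 2-fold, and with GC correction as well 1566 were past 2-fold. With transcript length corrected 1554 were past 2-fold and with coding length corrected 1263, the latter chosen after seeing the data.

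Counts moved with the replicate number and with the clones kept. With the mean of each number as 1 sample 799 genes were called, all past 2-fold. A correlation estimated within numbers, also added after seeing the data, left 1408 and 1221. Without the cultures with number 3 there were 451 and 407, within them alone 4895 were past 2-fold, without clone 28 there were 3065 called, and within clone 29 alone 301, all past 2-fold. The causes were not tested. Without number 3 signs turned for Rpl10 (-0.30), Naca (-0.0129), Eif4b (0.0173), Rps6 (-0.48) and Cebpg (0.15), among others. With transcript length corrected they turned for Ppp1r15b (0.0599), Slc7a11 (0.21), Oaz1 (-0.17), Cdk6 (0.0491) and Cd79b (-0.13), among others. With coding length corrected they turned for Oaz1 (-0.0227), Hk1 (0.0275) and Cd79b (-0.00684), among others. Of 153 named genes, 97 lost their call with the mean of each number as 1 sample, 117 without number 3 and 126 within clone 29.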
